A study of Mus musculus with 6 samples.

Results

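The core circadian clock genes and an output gene of the clock were followed in mouse liver. They are Arntl, Clock, Npas2, Per1, Per2, Per3, Nr1d1, Nr1d2, Dbp and Ciart. Every probe set that the array annotation assigns to exactly 1 of these 10 genes was taken, which gave 24 probe sets of the 45037 compared. Each probe set reads RNA of its gene through several short probes, and some may match more than 1 transcript. Liver RNA was measured on 6 one-colour Affymetrix arrays, 3 of A/J-12SM and 3 of A/J mice. A/J-12SM mice are consomic, with chromosome 12 from the SM/J strain on the A/J background, while A/J mice are the recipient strain. All animals were males that had received a high-fat diet for 7 weeks, started at 6 weeks of age and ended at 13 weeks by the study's methods, and no chow-fed group was included. Each array held RNA pooled from 3 mice, so that a replicate is a pool of animals and not a single mouse. None of the 10 genes lies on chromosome 12, so by the design of the consomic strain their own loci are A/J in both.

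In the liver, the clock is a transcriptional feedback loop. ARNTL (BMAL1) pairs with CLOCK or its relative NPAS2, binds E-box elements and drives the Per genes, Ciart, Nr1d1, Nr1d2 and Dbp. PER proteins and the product of Ciart (CHRONO) repress that pair, while the nuclear receptors NR1D1 and NR1D2 (REV-ERBs) repress Arntl through ROR elements. DBP binds D-box elements and passes the rhythm on to metabolic genes. In mouse liver, Arntl transcripts are therefore high when those of Dbp and the REV-ERBs are low, and levels of most of these genes depend strongly on the hour of sampling. In the general methods of the study, mice kept under a light/dark cycle were killed after a short fast that ended in the early afternoon. That schedule and the age are not given separately for the liver arrays, and the hour for each single pool is not stated.

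The start regions of the genes were searched for elements of this loop, and the 4 regions that held one are shown. RefSeq sequences (GRCm38.p6, from 250 bases before to 50 bases after a transcript start) were found for 9 of the 10 genes, in 13 windows, and Per2 had no entry. The search covered both strands for the E-box CACGTG, the D-box TTATGTAA or TTACGTAA, the ROR element TAGGTCA and the cyclic AMP element TGACGTCA. Matches are in capitals. The reference is the C57BL/6J genome and not A/J.
Per1 (chr11:69098699-69098998, plus strand): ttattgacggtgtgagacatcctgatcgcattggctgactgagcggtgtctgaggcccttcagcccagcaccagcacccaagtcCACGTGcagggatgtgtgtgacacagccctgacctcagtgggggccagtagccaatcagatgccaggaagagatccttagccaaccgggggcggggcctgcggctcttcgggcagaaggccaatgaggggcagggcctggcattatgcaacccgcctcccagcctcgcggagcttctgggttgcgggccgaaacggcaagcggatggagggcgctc
Ciart (chr3:95882179-95882478, minus strand): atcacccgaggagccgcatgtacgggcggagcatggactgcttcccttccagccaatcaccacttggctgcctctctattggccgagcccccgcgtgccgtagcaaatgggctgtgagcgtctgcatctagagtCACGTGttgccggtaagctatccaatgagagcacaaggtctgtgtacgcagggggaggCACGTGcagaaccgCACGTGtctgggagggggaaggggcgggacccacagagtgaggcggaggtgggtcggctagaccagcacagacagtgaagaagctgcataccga
Per3 (chr4:151044616-151044915, minus strand): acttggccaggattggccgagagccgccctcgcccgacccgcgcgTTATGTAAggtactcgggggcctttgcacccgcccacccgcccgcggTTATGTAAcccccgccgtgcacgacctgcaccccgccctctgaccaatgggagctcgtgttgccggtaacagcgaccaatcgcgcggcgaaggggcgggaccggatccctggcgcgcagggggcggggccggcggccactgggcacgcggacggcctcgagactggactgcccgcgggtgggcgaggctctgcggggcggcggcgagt
Arntl (chr7:113207261-113207560, plus strand): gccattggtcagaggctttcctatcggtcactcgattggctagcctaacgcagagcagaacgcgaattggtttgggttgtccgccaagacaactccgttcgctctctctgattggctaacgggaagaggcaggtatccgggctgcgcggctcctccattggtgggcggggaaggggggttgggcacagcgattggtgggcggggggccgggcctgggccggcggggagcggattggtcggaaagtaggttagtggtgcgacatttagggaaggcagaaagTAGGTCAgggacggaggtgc
Ciart held 3 E-boxes, at -116, -58 and -44 from the start, and Per1 held 1 at -166, in 1 of its 2 windows. Per3 held 2 D-boxes, at -205 and -158. Arntl held 1 ROR element at 31 bases into the transcript, in 1 of its 2 windows. None of these letters was found in the windows of Clock, Npas2, Nr1d1, Nr1d2 and Dbp. Of all 32851 windows of this length, 7.15% held the E-box, 1.06% a D-box and 2.61% the ROR element. The cyclic AMP element was in 1.79% of them and in 0 of the 13 clock gene windows.

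No clock gene passed the test between strains. Per1, Per2, Per3 and Dbp had higher mean values in A/J-12SM than in A/J liver, and Arntl and Clock had lower ones, but the adjusted p of the 24 probe sets ranged from 0.654 to 0.995 in limma. At an adjusted p under 0.05, 0 of the 24 were called, where 0.0555% of all probe sets were (25 in all, 11 higher and 14 lower). At an unadjusted p under 0.05 there were 3 of the 24, which is 12.5%, against 6.23% of all probe sets. These were the brightest probe sets of Per1 and Per2, both higher, and 1 of Clock, lower. With the test named in the study's methods, which estimates each spread alone, 2 of the 24 had an unadjusted p under 0.05, against 5.84% of all probe sets, and 0 passed after adjustment.

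By the brightest probe set, which stands for each gene unless another is named, 6 genes had higher and 4 had lower values in A/J-12SM liver. The median log2 fold change of the 10 genes (A/J-12SM minus A/J) was 0.17, against -0.01 over all 18193 genes. The values are quantile-normalized log2 signals. In the signals as deposited, the A/J-12SM arrays were dimmer over all probe sets by a median of -0.22, and there 5 genes were higher, since Ciart gave -0.12. Relative to that shift, the deposited differences were 0.79 for Per1, 0.45 for Per2, 0.41 for Per3, 0.44 for Dbp, -0.34 for Arntl and -0.20 for Clock. In liver tissue, fewer cells of a type and less RNA per cell cannot be told apart. In 2 of the 10 genes, Per1 and Per2, all arrays of 1 strain lay above those of the other, which was so for 12.3% of all genes.

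**Figure D1:**
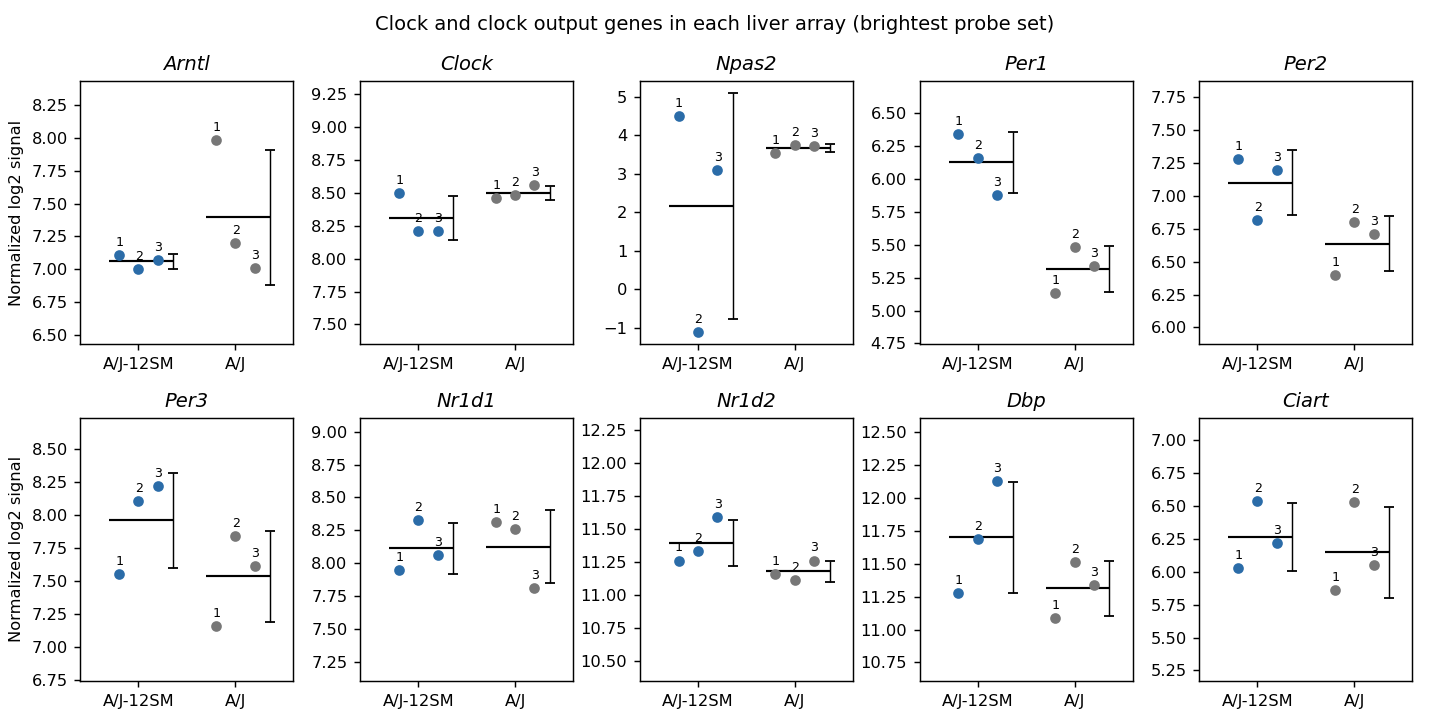
Signal after quantile normalization (y axis, log2) for the 10 genes, by brightest probe set, in A/J-12SM (blue) and A/J livers (grey); points are single arrays numbered by replicate, lines mark the means, bars the SDs (n = 3), and the axis range is wider for Npas2. All 3 Per1 points of A/J-12SM lie above those of A/J, while Arntl stands at 7.98 in A/J replicate 1 and between 7.00 and 7.20 in the other 5 arrays.

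The Per genes encode the repressors that close the loop. Per1 (chromosome 11, 69095108 to 69109965 of GRCm38.p6) has 1 probe set, which read 6.34, 6.16 and 5.88 on the log2 scale in A/J-12SM arrays, against 5.13, 5.48 and 5.34 in A/J arrays. All A/J-12SM arrays thus lay above all A/J arrays. The means were 6.13 ± 0.23 and 5.31 ± 0.17 (SD, n = 3 arrays each). The log2 fold change was 0.81 (SE 0.26, 95% interval 0.23 to 1.39), or 1.76-fold, with an adjusted p of 0.654 in limma. An exact two-sided permutation test gave p = 0.1, the smallest that 3 arrays against 3 allow. Per1 was near the middle of the brightness range, at percentile 55.7 of all probe sets. Its A/J mean of 5.31 was beside the median over all probe sets, 5.33. Replicates spread more below that median, with a typical SD of 0.863 against 0.207 for brighter probe sets. Leaving out 1 array at a time kept its log2 fold change between 0.70 and 0.93.

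Per2 (chromosome 1, 91415977 to 91459351) read 7.28, 6.82 and 7.20 in A/J-12SM arrays and 6.40, 6.80 and 6.71 in A/J arrays by its brightest probe set. The strains were separate here by a narrow margin, with A/J-12SM replicate 2 and A/J replicate 2 side by side. This was a log2 fold change of 0.46 (SE 0.19, 95% interval 0.04 to 0.89, adjusted p = 0.789 in limma). The other 2 probe sets of Per2 gave 0.41 and 0.34, with overlap of the arrays. With each array centred on its median in place of quantile normalization, 1 of the 10 genes was without overlap in place of 2, and the share of all genes was 9.37% in place of 12.3%.

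Per3 (chromosome 4, 150997018 to 151044707) has 6 probe sets, 5 of them with a higher mean in A/J-12SM liver. The brightest read 7.55, 8.11 and 8.22 in A/J-12SM arrays, against 7.16, 7.84 and 7.61 in A/J arrays, so that the strains overlapped. Its log2 fold change was 0.42 (SE 0.22, 95% interval -0.06 to 0.91, adjusted p = 0.825 in limma). Of the other probe sets, 3 that were brighter than the median gave 0.24, 0.45 and 0.33. The remaining 2 were below the median and gave -0.26 and 0.16. Together, 9 of the 10 probe sets of Per1, Per2 and Per3 had higher means in A/J-12SM liver. Probe sets of the same gene were read from the same RNA and are not independent.

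Ciart (chromosome 3, 95878500 to 95882257), whose product represses the ARNTL pair, read 6.03, 6.54 and 6.22 in A/J-12SM arrays and 5.86, 6.53 and 6.05 in A/J arrays. The highest arrays of the strains were at the same level. A log2 fold change of 0.12 had a 95% interval from -0.44 to 0.68 (adjusted p = 0.959 in limma), and leaving out either A/J replicate 1 or A/J-12SM replicate 2 gave -0.02.

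Of the activators, Arntl (chromosome 7, 113178471 to 113314126) read 7.11, 7.00 and 7.07 in A/J-12SM arrays and 7.98, 7.20 and 7.01 in A/J arrays. The A/J-12SM arrays were close together, while A/J replicate 1 stood above every other array. The means were 7.06 ± 0.06 and 7.39 ± 0.51 (SD, n = 3 each), which differ by -0.33 (SE 0.23, 95% interval -0.86 to 0.19, adjusted p = 0.862 in limma). Without A/J replicate 1 it was -0.04, so that the lower mean of A/J-12SM rests on that array. The second Arntl probe set, which is dimmer, gave 0.02, and A/J replicate 1 was its highest array too, at 6.47 against 5.55 to 6.11 in the others.

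Clock (chromosome 5, 76209868 to 76305603), the usual partner of ARNTL, read 8.50, 8.21 and 8.21 in A/J-12SM arrays, against 8.46, 8.48 and 8.56 in A/J arrays. A/J-12SM replicate 1 was at the A/J level and the other two were below it. Their difference was -0.19 (SE 0.12, 95% interval -0.46 to 0.07, adjusted p = 0.835 in limma). A second probe set read 7.47, 7.44 and 7.18 in A/J-12SM and 7.64, 7.67 and 7.72 in A/J arrays, without overlap (log2 fold change -0.31, SE 0.14, adjusted p = 0.799 in limma). The remaining 2 gave -0.01 and -0.39. Npas2 (chromosome 1, 39193702 to 39363240) was dim, with its probe sets at percentiles 17.9 and 6.16 of brightness. Its brighter probe set read 4.51, -1.11 and 3.11 in A/J-12SM arrays and 3.55, 3.74 and 3.73 in A/J arrays. The log2 fold change of -1.51 (SE 1.25) came from A/J-12SM replicate 2, without which it was 0.13, and the strains could not be compared for Npas2 at this brightness.

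The REV-ERB genes had smaller differences than Per1, which was not itself tested. Nr1d1 (chromosome 11, 98767932 to 98775377) read 7.95, 8.33 and 8.06 in A/J-12SM arrays and 8.31, 8.26 and 7.81 in A/J arrays, which overlapped fully. Its log2 fold change was -0.01, with a 95% interval from -0.38 to 0.36. Nr1d2 (chromosome 14, 18204056 to 18239106) was among the brightest transcripts, at percentile 97.2 of all probe sets. It read 11.26, 11.33 and 11.59 in A/J-12SM arrays, against 11.16, 11.11 and 11.26 in A/J arrays, where the lowest A/J-12SM and the highest A/J array both stood at 11.26. Nr1d2 differed by 0.21 (SE 0.10, 95% interval -0.01 to 0.44, adjusted p = 0.813 in limma), and the second probe set gave 0.24.

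Dbp (chromosome 7, 45705100 to 45710203), the D-box activator, read 11.28, 11.69 and 12.13 in A/J-12SM arrays and 11.09, 11.51 and 11.34 in A/J arrays. A/J-12SM replicate 3 was the highest and A/J replicate 1 the lowest, and the strains overlapped. The log2 fold change was 0.39 (SE 0.19, 95% interval -0.04 to 0.81, adjusted p = 0.818 in limma). It was 0.17 without A/J-12SM replicate 3 and 0.59 without A/J-12SM replicate 1. The other Dbp probe set gave 0.16. The brighter of these probe sets is of a type (_s_at) that may also match related transcripts.

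**Figure D2:**
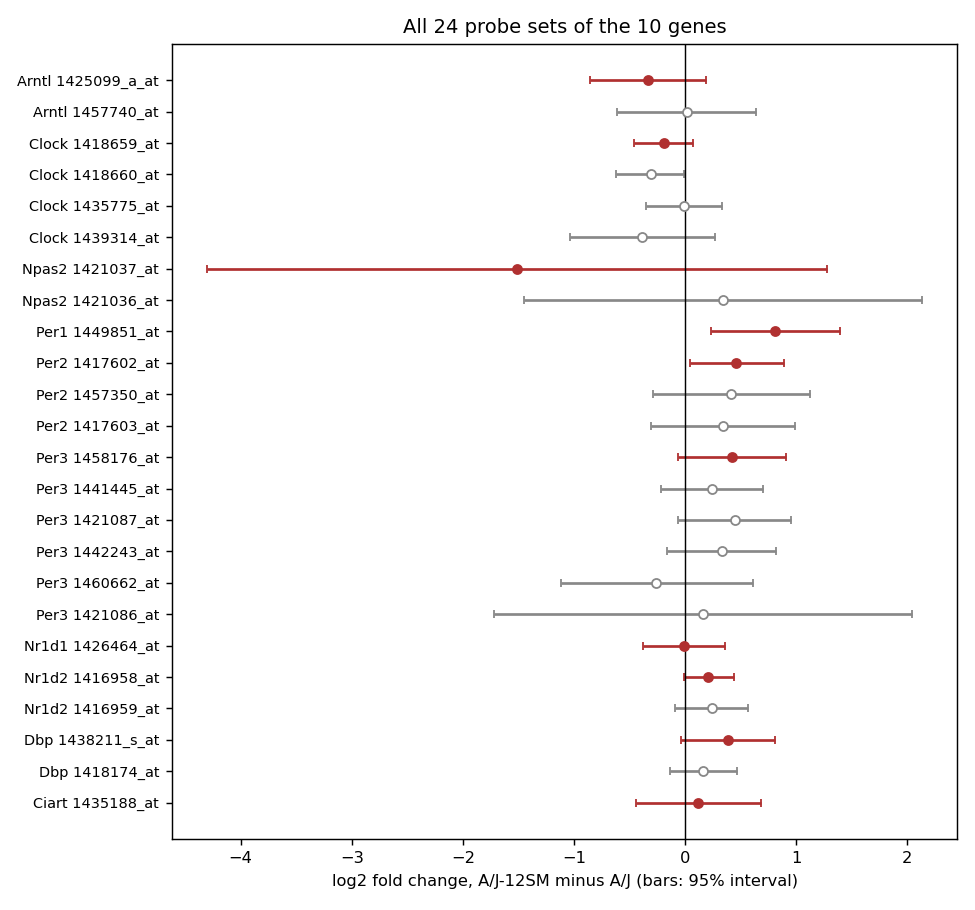
Log2 fold change (A/J-12SM minus A/J, x axis) of each of the 24 probe sets (y axis, gene and probe set), with filled red points for the brightest probe set of a gene, open grey points for the others, and bars for the 95% interval from limma. The intervals of Per1 (0.23 to 1.39) and of the brightest Per2 probe set (0.04 to 0.89) lie above 0 before adjustment. That of 1 Clock probe set (-0.62 to -0.01), not the brightest, lies below 0, and both Npas2 intervals are wide.

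The median absolute log2 fold change of the 10 genes was 0.36, against 0.13 over all genes at least as bright as the median. These sets are not alike, since the 10 include Npas2 (-1.51), which is below that median. Single arrays also stood apart within a strain. A/J replicate 1 differed from the mean of the other A/J arrays by 0.87 for Arntl, -0.56 for Per3, -0.43 for Ciart, -0.36 for Per2, -0.33 for Dbp, -0.28 for Per1, -0.19 for Npas2 and -0.06 for Clock. For Per1 the difference between strains, 0.81, was larger than that of this array. A typical SD between replicates was 0.207 for brighter and 0.863 for dimmer probe sets. A difference of 1 array from a mean of 2 varies more than a single array does. A/J replicate 1 was thus high in Arntl and low in Per1, Per2, Per3, Dbp and Ciart. This array was higher by 0.28 in Nr1d1 and differed by -0.02 in Nr1d2. It was the lowest A/J array for 7 of the 10 genes. These include Npas2, which is below the median brightness, and Clock, by a small margin (8.46 against 8.48 and 8.56). Over 11042 genes at or above the median brightness it was the lowest for 32.9%. A/J replicate 2 was the highest A/J array for 6 of the 10 genes, Npas2, Per1, Per2, Per3, Dbp and Ciart. Over the same 11042 genes it was the highest for 30.5%. Without A/J replicate 1 the log2 fold changes were 0.72 for Per1, 0.35 for Per2, 0.24 for Per3, 0.28 for Dbp and -0.04 for Arntl.

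Among A/J-12SM arrays, replicate 1 was the lowest for Per3, Nr1d1, Nr1d2, Dbp and Ciart and the highest for the other 5 genes, Arntl, Clock, Npas2, Per1 and Per2. Over genes at or above the median brightness, which leaves out Npas2, it was the lowest for 29.9% and the highest for 29.1%. A/J-12SM replicate 3 was the highest for Per3, Nr1d2 and Dbp. In this array the 5′ actin probe set reached 0.423 of the 3′ one, against 0.553 to 0.590 in the other arrays, which can mark shorter RNA. Without it the log2 fold changes were 0.17 for Dbp, 0.29 for Per3, 0.11 for Nr1d2 and 0.93 for Per1. With A/J-12SM replicate 1 left out, 7 of the 10 genes were without overlap, against 23.0% of all genes in the same arrays, and with A/J replicate 3 left out 4 were, against 24.2%. Leaving out any of the other 4 arrays gave 2 of the 10 genes, where the share of all genes was 23.9% without A/J-12SM replicate 2, 22.4% without A/J-12SM replicate 3, 21.1% without A/J replicate 1 and 19.9% without A/J replicate 2.

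**Figure D3:**
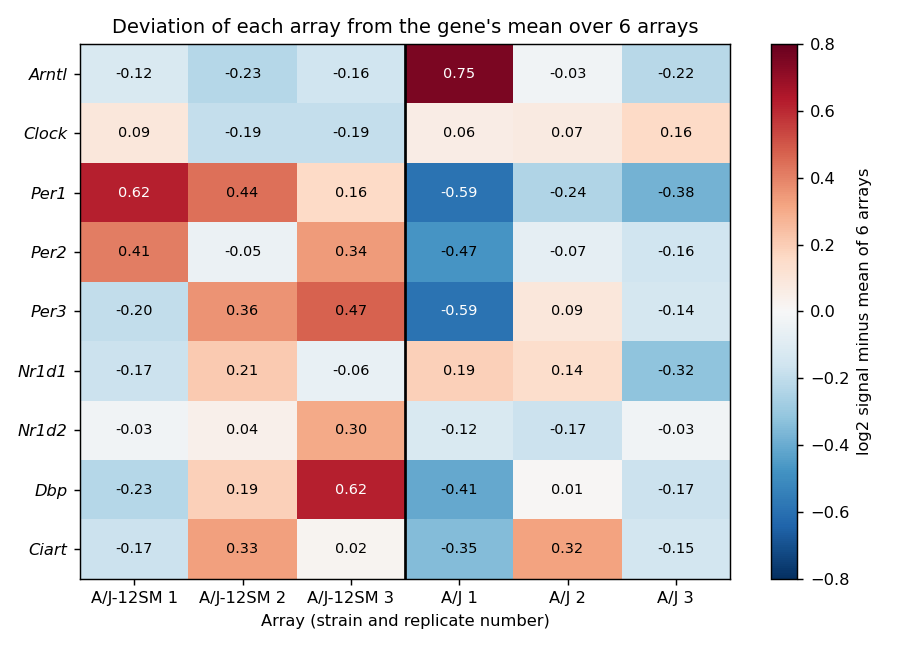
Log2 signal of each array (x axis, strain and replicate number) minus the gene's own mean over the 6 arrays, for 9 of the 10 genes (y axis); red is above and blue below the mean, and Npas2 is not drawn because of its range. In A/J replicate 1 Arntl is at 0.75 and Per1, Per2, Per3, Dbp and Ciart lie between -0.59 and -0.35, and in A/J-12SM replicate 3 Dbp is at 0.62.

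The profile of the D-box activator over the 6 arrays was most like those of Lpin2 (Pearson r = 0.988), Cep68 (0.985), Ltbp3 (0.984), Gtf2ird2 (0.981) and Nkiras1 (0.981), out of 11033 other genes at or above the median brightness. Among the clock genes, Per3 followed Dbp at 0.938 and Nr1d2 at 0.837, and Clock ran against it at -0.816. The genes most like Arntl were Ccl28 (0.984), Zfp867 (0.983), Ctf1 (0.983), Gng12 (0.976) and Msantd4 (0.975). Per3 ran against Arntl at -0.743 and Per2 at -0.659. Of the 11033 genes searched, 138 had r over 0.9 with Dbp and 58 with Arntl, so that a high r over 6 arrays does not single out 1 gene. The clock genes were not found by this search, but their list was chosen with earlier results of these data known. Arrays of a strain share their genotype, and Arntl was set apart from its mean mainly in A/J replicate 1.

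Of 15 other clock genes listed, 13 had a probe set, 9 with higher and 4 with lower values in A/J-12SM liver, and 0 passed an adjusted or an unadjusted p under 0.05 in limma. Their median log2 fold change was 0.04. Csnk1d, a kinase that phosphorylates PER proteins, read 9.54, 9.36 and 10.01 in A/J-12SM arrays and 9.32, 9.34 and 9.38 in A/J arrays, a difference of 0.29 (SE 0.15, adjusted p = 0.825 in limma). Nono, a PER-binding protein, had 0.21. Cry1 and Cry2, the cryptochrome repressors, had 0.15 (95% interval -0.60 to 0.89) and 0.09 (95% interval -0.42 to 0.61). Cry1 read 6.39, 6.74 and 7.10 in A/J-12SM and 7.29, 5.88 and 6.64 in A/J arrays. As with Arntl, A/J replicate 1 was its highest array. Rora, which activates Arntl through the ROR element, differed by 0.01 (95% interval -0.24 to 0.26).

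Among 15 listed clock output genes and targets of DBP and its relatives, 14 had a probe set, with 10 higher and 4 lower values, a median log2 fold change of 0.19 and 0 called. At an unadjusted p under 0.05 in limma there were 2 higher and 1 lower, 3 of 14, where 6.78% of all genes passed by their brightest probe set. Nampt, 1 of the 10 higher genes (0.17), lies on chromosome 12, where the strains differ in sequence. Alas1, the rate-limiting enzyme of heme synthesis, read 10.73, 10.64 and 10.02 in A/J-12SM arrays, against 8.85, 10.26 and 10.65 in A/J arrays. Its log2 fold change of 0.54 (SE 0.39, adjusted p = 0.865 in limma) rests on A/J replicate 1, its lowest array, without which it was 0 to 2 decimals. Nfil3, which represses at the D-box, read 8.09, 7.63 and 7.91 in A/J-12SM and 8.25, 8.36 and 8.02 in A/J arrays (log2 fold change -0.33, SE 0.15, adjusted p = 0.804 in limma). Noct, the nocturnin gene, had 0.36 and Tspan4 0.32, both with overlap of the strains. Of the relatives of Dbp, Tef had 0.16 and Hlf, without overlap of the strains, -0.26 (unadjusted p = 0.0279, adjusted p = 0.763 in limma).

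**Figure D4:**
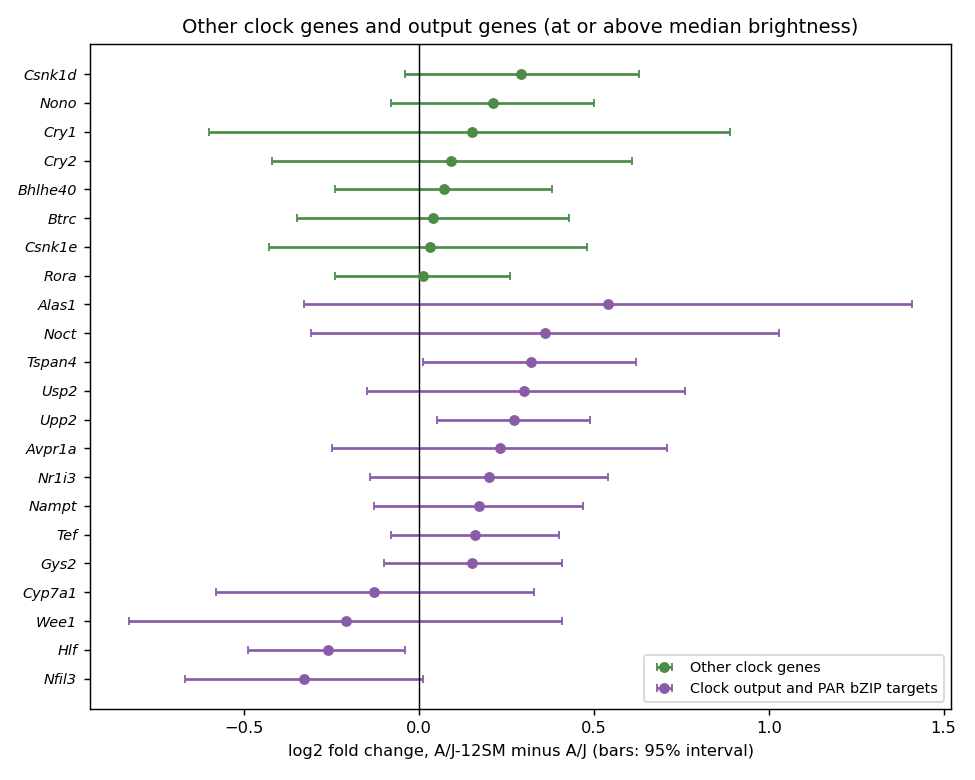
Log2 fold change (A/J-12SM minus A/J, x axis) of other clock genes (green) and of clock output genes and PAR bZIP targets (purple) at or above the median brightness (y axis), by the brightest probe set, with bars for the 95% interval from limma. Alas1 has the highest value, 0.54, with an interval that holds 0, and Nfil3 the lowest, -0.33.

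Clock gene levels in liver also follow feeding state and glucocorticoids, so lists of these responses were read on the same arrays, and 0 genes of them were called. At an unadjusted p under 0.05 in limma there were 2 higher and 1 lower of the fasting-induced, 1 higher and 1 lower of the feeding-induced, 2 higher and 2 lower of the glucocorticoid-induced, and 3 higher and 0 lower of the immediate early genes, beside the same 6.78% of all genes. Of 9 measured fasting-induced genes, 5 had higher and 4 lower values, with a median of 0.04. Pck1, which makes the key enzyme of gluconeogenesis, read 12.03, 12.05 and 12.63 in A/J-12SM arrays and 11.37, 11.25 and 11.68 in A/J arrays, without overlap (log2 fold change 0.81, SE 0.17, adjusted p = 0.338 in limma). Igfbp1, a fasting-responsive binding protein of insulin-like growth factors, had 0.74 without overlap (SE 0.30, adjusted p = 0.789 in limma). It read 8.91, 8.99 and 10.11 in A/J-12SM and 8.82, 8.14 and 8.84 in A/J arrays, with A/J-12SM replicate 3 well above the rest. Fgf21 had -0.41 and Pdk4 -0.34, both with overlap. Cpt1a was lower without overlap, at -0.25 (unadjusted p = 0.0138, adjusted p = 0.684 in limma). In all, 3 of these 9 genes were without overlap, where 12.3% of all genes were. Of 9 feeding-induced genes, 3 had higher and 6 lower values (median -0.14). Elovl6 had 0.41 without overlap, and Pklr had -0.32, Fasn -0.31 and Pnpla3 -0.23, all with overlap.

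Of 9 measured glucocorticoid-induced genes, 5 had higher and 4 lower values, with a median of 0.01. Per1 itself responds to glucocorticoids. Zbtb16, a zinc finger regulator, read 7.31, 7.91 and 8.60 in A/J-12SM and 6.98, 7.06 and 7.07 in A/J arrays, without overlap (log2 fold change 0.90, SE 0.27, adjusted p = 0.622 in limma). Sgk1, a serum- and glucocorticoid-regulated kinase, had 0.51 without overlap, Mt2 -0.46 and Cdkn1a -0.68, the last lower without overlap. Of 11 immediate early genes, 6 had higher and 5 lower values (median 0.12). Egr1 read 7.60, 9.96 and 10.16 in A/J-12SM arrays and 7.61, 8.04 and 7.48 in A/J arrays, so that 2 of the 3 A/J-12SM arrays stood apart. Fos had 0.64 without overlap, but it lies on chromosome 12, where the strains differ in sequence. Ier2 had 0.27 and Myc 0.33. The part of feeding state, glucocorticoids or handling in the Per1 and Per2 values was not tested.

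The tissue label was met by the markers, as all 6 measured hepatocyte markers were at or above percentile 97.7 of brightness, with list means of 13.72 to 13.75 in A/J-12SM and 13.67 to 13.70 in A/J arrays. Of the other cells, all 8 macrophage markers had lower values in A/J-12SM liver, with 0 calls (list means 8.32 to 8.92, against 8.74 to 9.0 in A/J arrays). All 6 stellate cell markers had higher values, with a median log2 fold change of 0.03 and 0 calls. Their list means were 7.94 to 8.41 in A/J-12SM and 7.80 to 8.09 in A/J arrays. The 5 endothelial markers, 2 higher and 3 lower, had list means of 8.40 to 8.53 against 8.46 to 8.62. The 4 bile duct markers, 1 higher and 3 lower with 0 calls, had list means of 3.47 to 4.26 against 4.45 to 5.04. At or above the median brightness were 1 of 4 bile duct, 1 of 4 lymphocyte, 0 of 2 adipocyte, 2 of 3 muscle and 1 of 2 pancreas markers, the brightest muscle marker at percentile 51.9 and the pancreas marker at 97.8. The part of any of these cells in the clock gene values was not tested.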

How the data were processed

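Liver RNA of 3 A/J-12SM and 3 A/J pools of mice was hybridized to 1 array each. The authors deposited intensity values on a linear scale, 1 MAS5 signal per probe set and array, with the version and scaling of MAS5 not given in the sources used here. Trimmed means (2% at each end) were 171 to 186 in A/J-12SM and 201 to 213 in A/J arrays, so log2 signals were quantile normalized, which removes any overall difference between strains. Without the 64 control probe sets, 45037 entered the fit in limma 3.58.1 (R 4.3.3; lmFit, eBayes with a brightness trend, no covariates), which was tested on simulated data. Benjamini-Hochberg adjustment covered all 45037, with 0.05 as the threshold. Of the probe sets, 34945 carried 1 gene name, and 34741 of these were matched to GRCm38.p6. Clock genes and lists were chosen with earlier results of these data known. All 10 clock genes are named and, in each other list, called genes and up to 4 of largest change that are at least of median brightness. Rora, Tef, Hlf, Nampt and Cpt1a were named after their values were seen. Likeness of pattern was measured by Pearson r for Dbp and Arntl. P-values measure the spread between pools. Figures were drawn with matplotlib 3.10.9.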

Additional observations from a re-analysis of the deposited data

How the results depend on the processing

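No clock gene probe set passed an adjusted p under 0.05 in any of the 14 other settings in which probe sets were tested (other normalizations, an offset of 9.2, dim probe sets left out, 1 prior variance, the methods' test, the replicate number as a block, each array left out in turn), and neither did any gene by the mean of its probe sets. Per1, Per2, Per3, Nr1d2 and Dbp kept a positive and Arntl and Clock a negative difference in all 15. The median of the 10 genes was -0.04 in the values as deposited, where all probe sets shift by -0.22, and Ciart was -0.12 there. With single arrays left out, Ciart ranged from -0.02 to 0.31, Nr1d1 from -0.17 to 0.08 and Npas2 from -2.68 to 0.13. The genes without overlap were 1 with each array centred on its median (9.37% of all genes) and 2 to 7 with single arrays left out (19.9% to 24.2% of all genes), 7 without A/J-12SM replicate 1 (23.0%). Over all probe sets, 25 calls became 47 in the values as deposited, 1 with 1 prior variance, 1 with the methods' test and 6 to 23 with single arrays left out (6 without A/J replicate 2). The cause was not tested. Replicate numbers do not pair the arrays by the labels, and deviations of same-numbered arrays correlated at -0.0565, 0.0892 and 0.156, each number being its own best match only for replicate 3. With the replicate block 28 probe sets passed, 0 of them clock genes.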
